A study of Mus musculus with 4 samples.

Results

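The 2 control lines of a CRISPR study were compared with each other: the library titled control 2 against the library titled control 1, 2 of the 4 RNA-seq libraries of the series. Both come from 4T1, an established mouse mammary carcinoma line that forms triple-negative tumours in mice, and both are labelled as controls, without the deletion in Fas, the gene of the death receptor CD95. Genes were described where at least 1 of the 2 controls listed a TPM (an abundance per transcript length, scaled to a constant sum in each library) of at least 1, which kept 11388 of the 24411 genes. Per the labels' protocols, the RNA sources were 4T1 cells named only as control, a 4T1 line carrying a lentivirus for Cas9 and blasticidin resistance and selected with blasticidin, and 2 clones (CD95ko 1 and CD95ko 2). The clones were grown from single sorted cells of that Cas9 line after transfection of a pair of guide RNAs against exon 9 of Fas. The labels call both controls by the genotype control, name no separate treatment, and do not say which of them carries Cas9. The file name of control 2 points to the Cas9 line and that of control 1 to another culture, so control 1 may be the parental cells. The Cas9 transcript was not analysed here. The promoter that drives Cas9 and the number of cells from which the Cas9 line was founded are not given in the sources used here.

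Each control is 1 library, so the differences between them have no replicate check and carry no test. The 2 CD95ko libraries serve only as a yardstick for how far 2 libraries of these cells lay apart. Differences are given as log2(TPM + 1) in control 2 minus that in control 1, a scale on which weakly expressed genes appear closer together than they are. A gene is called over 2-fold higher or lower where this difference is above 1 or below -1. Pairs of TPM values are given as control 1 against control 2, and pairs of clones as CD95ko 1 and CD95ko 2. Where a fold is given for 1 gene, it is the plain ratio of the TPM values. A TPM table keeps no read number, so depth is unknown and a 0 is reported as listed at 0. In bulk RNA, fewer cells of a type and less RNA per cell cannot be told apart.

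Genes of the interferon response were among those that set the controls apart, and most of the genes that differed were others. Type I interferons bind the receptor chains IFNAR1 and IFNAR2, whose kinases JAK1 and TYK2 activate transcription factors in the cytoplasm. With IRF9, these bind interferon-stimulated response elements in the promoters of antiviral effector genes. Foreign nucleic acid in the cytoplasm can start this response through RIG-I-like receptors or through cGAS and STING, and tumour cells can keep a low response without infection.

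Control 2 was lower than control 1 over most of the transcriptome. The median difference of the 11388 genes was -0.37, and 310 genes (2.72%) were over 2-fold higher and 1605 (14.1%) over 2-fold lower in control 2. Only 16.2% of the genes past 2-fold were therefore higher, a share that was 44.0% when differences were taken relative to the median of all genes. Relative to that median, 569 genes (5.0%) were over 2-fold higher and 724 (6.36%) over 2-fold lower. With TPM rescaled without the cytosolic ribosomal protein genes the median was -0.28, with 375 genes higher and 1445 lower. Abundant transcripts held more of control 2: its 100 most abundant genes took 40.2% of the TPM against 34.1% in control 1, and cytosolic ribosomal protein genes took 30.6% against 25.4%. These shares were 36.2% and 36.1%, and 25.9% and 23.4%, in CD95ko 1 and 2. Over the same genes, control 2 had the lowest value of the 4 libraries for 4887 (42.9%) and the highest for 1356 (11.9%), while control 1 had the highest for 3513 (30.8%).

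The controls were nearer to each other than the CD95ko clones were. The SD of the difference over the 11388 genes was 0.719 between the controls and 1.02 between CD95ko 2 and CD95ko 1, and 2550 genes (22.4%) were over 2-fold apart between the clones against 1915 (16.8%) between the controls. The size of the difference varied with the level of a gene. When the genes were cut into 4 equal groups by mean level, in the lowest group the median difference was -0.55 and 30.8% were over 2-fold lower, against -0.17 and 2.14% in the highest. In the plot of control 2 against control 1, interferon-stimulated effectors lie below the cloud and a small number of abundant genes above it.

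**Figure D1:**
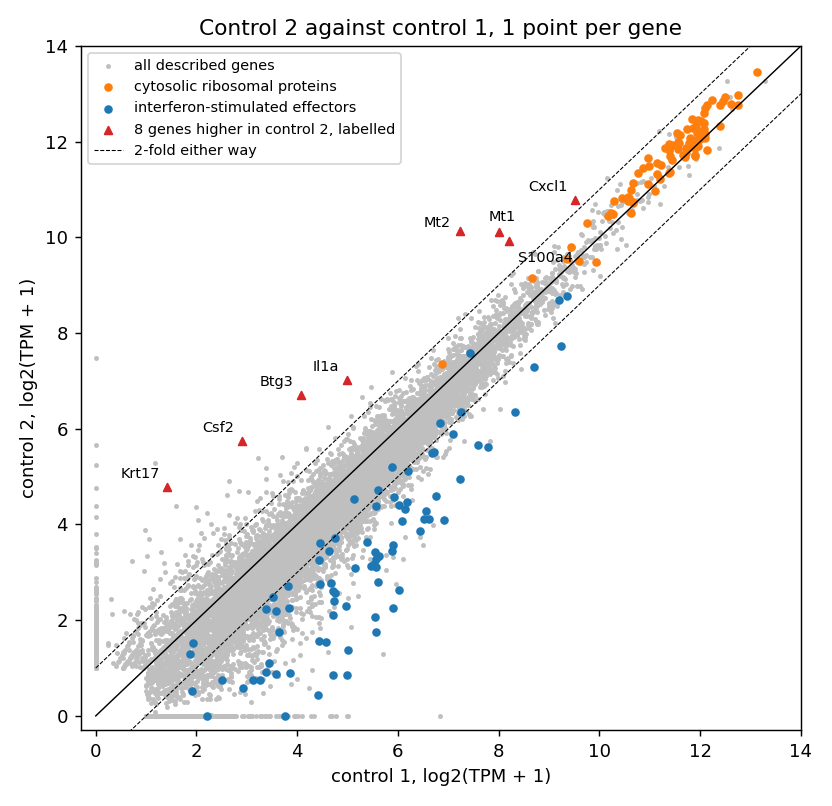
Level of each described gene in control 1 (x axis) and control 2 (y axis), both as log2(TPM + 1), with 1 point per gene and dashed lines at a 2-fold difference. Blue points are the 81 interferon-stimulated effectors, 70 of which are over 2-fold lower in control 2, orange points the 82 cytosolic ribosomal protein genes, and red triangles 8 genes with higher values in control 2.

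Interferon-stimulated effectors were lower in control 2 as a group. Of 81 described genes of this list, 70 were over 2-fold lower and 0 over 2-fold higher, with a median difference of -2.10 against -0.37 for all genes. 80 of the 81 were below 0, Ifitm2 being the exception at 172 TPM in control 1 against 191 in control 2. Relative to the median of all genes, 58 were over 2-fold lower. The 4 lists on interferon effectors, interferon receptors and factors, nucleic acid sensors and MHC class I held 139 (1.22%) of the described genes and 94 (5.86%) of the 1605 genes over 2-fold lower in control 2. Their share was larger among genes of higher level and larger fold. They held 99 (1.68%) of the 5910 genes with at least 20 TPM in control 1, 70 (15.6%) of the 449 genes over 2-fold lower with at least 20 TPM in the higher control, and 39 (56.5%) of the 69 that were over 4-fold lower there. Of 14 genes that were over 4-fold higher at this level, 0 belonged to them.

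The antiviral enzymes and RNA-binding effectors were lower in control 2 than in control 1. Rsad2, which encodes viperin, an enzyme that makes a chain-terminating nucleotide, was listed at 58.8 TPM in control 1, 3.77 in control 2, 9.93 in CD95ko 1 and 13.0 in CD95ko 2. Its neighbour on chromosome 12, Cmpk2, a mitochondrial nucleotide kinase, was listed at 25.1 TPM in control 1, 0.82 in control 2, 5.45 in CD95ko 1 and 2.07 in CD95ko 2. Control 1 was the highest library and control 2 the lowest for both genes. The Oas genes encode sensors of double-stranded RNA that make 2',5'-oligoadenylate and so activate RNase L. Oas3 had 22.6 TPM in control 1 against 1.91 in control 2, and Oas2 7.65 against 0.67 TPM. Oas1g had 46.3 against 2.38 TPM in the controls and 9.11 and 11.7 TPM in the CD95ko libraries. Because the Oas1 copies are similar (58.3% of the 25-base stretches of Oas1g also occur in other genes), the summed Oas1 genes were compared too, at 236 TPM in control 1, 25.4 in control 2, 61.5 in CD95ko 1 and 85.8 in CD95ko 2. The sum was 9.28-fold lower in control 2 than in control 1. Ifit1, Ifit2 and Ifit3 bind foreign or uncapped RNA and block its translation. Ifit1 was listed at 44.8 against 8.02 TPM in the controls and 13.3 and 8.85 TPM in the CD95ko libraries. Ifit3 with its near copy Ifit3b summed to 89.0 against 10.8 TPM in the controls and 17.1 and 1.70 TPM in the CD95ko libraries. Control 1 was again the highest of the 4.

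The GTPases of the interferon response followed the same order between the controls. Gbp2, a guanylate-binding protein that attacks membranes around intracellular pathogens, was listed at 47.9 TPM in control 1, 5.95 in control 2, 33.3 in CD95ko 1 and 43.7 in CD95ko 2, and Gbp3 at 46.3 against 7.63 TPM in the controls. Gbp9 had 20.2 TPM in control 1 against 0.36 in control 2, with 15.6 and 20.8 TPM in the CD95ko libraries, so here control 2 alone was low. Of its 25-base stretches, 23.7% also occur in other genes. The immunity-related GTPases Irgm1, Irgm2, Igtp and Ifi47 were listed at 90.3 against 16.2, 30.3 against 3.90, 59.0 against 10.97 and 31.0 against 1.58 TPM in the controls. All of these were higher in control 1, by 5.38-fold for Igtp to 19.6-fold for Ifi47. The dynamin-like Mx1 and Mx2, of a family that traps viral nucleoproteins, had 6.63 against 0.49 and 26.0 against 4.94 TPM. Mx2 is annotated in GENCODE M21 as a polymorphic pseudogene, so its transcript need not encode a working protein.

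The most abundant effectors were also lower, by smaller folds. Isg15, a ubiquitin-like protein, was listed at 600.5 TPM in control 1, 212 in control 2, 156 in CD95ko 1 and 62.3 in CD95ko 2, which is 2.83-fold lower in control 2 than in control 1. Usp18, the protease that removes ISG15 and blocks signalling at IFNAR2, had 93.3 against 18.5 TPM in the controls and 27.9 and 29.1 TPM in the CD95ko libraries. Bst2 (tetherin), which holds budding virus at the cell surface, had 415 against 156 TPM in the controls and 237 and 266 TPM in the CD95ko libraries. Control 1 was the highest of the 4 libraries for all of these genes, and the CD95ko libraries lay above control 2 for Usp18 and Bst2 and below it for Isg15. Apol9a, an apolipoprotein L family member, was listed at 321 TPM in control 1, 81.2 in control 2, 67.2 in CD95ko 1 and 170.1 in CD95ko 2. Ifitm3, Ifi27 and Ifitm2 were within 2-fold, with 658 against 436, 583 against 409.5 and 172 against 191 TPM in the controls.

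Across the 81 effectors the median level, as log2(TPM + 1), was 5.52 in control 1, 3.17 in control 2, 3.84 in CD95ko 1 and 4.42 in CD95ko 2. Control 1 had the highest value of the 4 libraries for 59 of the 81, against 30.8% of all genes, and control 2 the lowest for 50, against 42.9% of all genes. The line plot of effector levels shows the low point at control 2. Between the controls, the effectors without those that share over 20% of their 25-base stretches with other genes numbered 66, with a median difference of -2.08 and 89.4% over 2-fold lower. The median was -1.68 when each gene was set against genes of similar transcript length (10 equal groups).

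**Figure D2:**
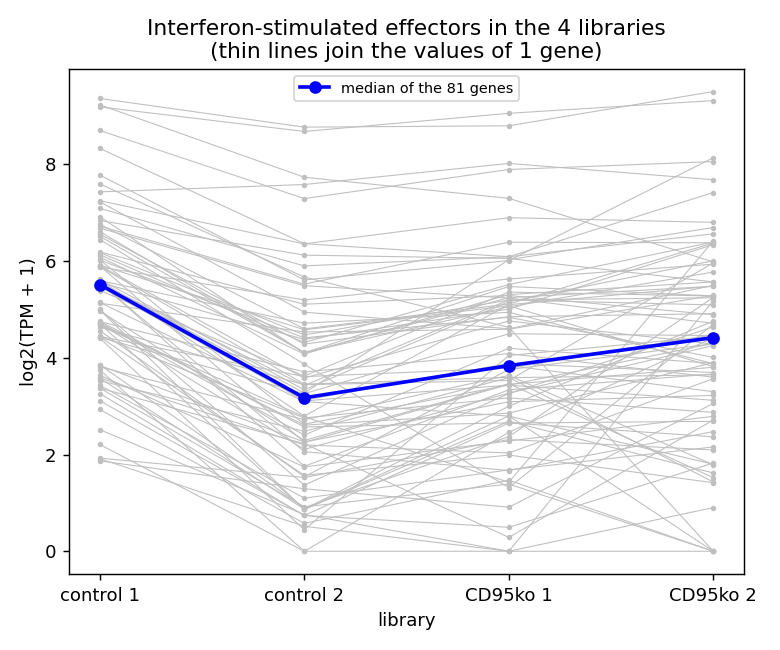
Levels of the 81 interferon-stimulated effectors, as log2(TPM + 1) on the y axis, in each of the 4 libraries on the x axis, with 1 thin line per gene and the median as a thick line. The median is 5.52 in control 1, 3.17 in control 2, 3.84 in CD95ko 1 and 4.42 in CD95ko 2.

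The letters of the interferon-stimulated response element were looked up in the promoters of these effectors because so many of them were lower together. The RefSeq table for GRCm38.p6 holds 250 bases before to 50 bases after the start of each gene, and a GAAA, any 2 bases and a second GAAA were searched on both strands. Promoters were found for 51 of the 70 effectors over 2-fold lower, and 29 of them (56.9%) held a match. For the 11 effectors within 2-fold, 4 of 9 promoters (44.4%) held one. The share was 3.62% of 9142 promoters of all described genes, 4.60% of the 1175 promoters of genes that were over 2-fold lower but in none of the 4 lists, and 3.44% of all 32851 promoters of this length. The windows below show 4 such promoters from different families, with the match and 30 bases either side, 5' to 3' on the strand of the gene and with the matched letters in capitals. In Rsad2 and Gbp2 the match lies on the other strand and so reads as a pair of TTTC. The match starts 120 bases before the gene start in Rsad2, 75 before it in Oas3, 59 in Gbp2 and 64 in Irgm2.
Rsad2 (chr12:26456533-26456602, minus strand): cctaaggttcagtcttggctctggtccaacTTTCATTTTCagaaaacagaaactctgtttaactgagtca
Oas3 (chr5:120777695-120777764, minus strand): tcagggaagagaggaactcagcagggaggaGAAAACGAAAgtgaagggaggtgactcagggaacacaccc
Gbp2 (chr3:142620574-142620643, plus strand): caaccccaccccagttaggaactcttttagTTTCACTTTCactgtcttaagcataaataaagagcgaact
Irgm2 (chr11:58214883-58214952, plus strand): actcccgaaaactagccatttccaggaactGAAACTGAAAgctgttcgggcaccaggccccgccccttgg
A match describes these letters only, not a bound site. The list was made of genes known to respond to interferon, so a share above that of all genes was likely beforehand. It does not bear on the difference between the controls. The genes of these windows were 15.6-fold, 11.9-fold, 8.04-fold and 7.78-fold lower in control 2, in the order shown.

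Transcription factors of the pathway differed between the controls, and its receptors were within 2-fold. Of 22 described interferon receptors, kinases, STATs, IRFs and their inhibitors, 9 were over 2-fold lower and 0 higher in control 2, with a median of -0.60 against -0.37 for all genes. Irf7, the amplifier of type I interferon production, had 89.0 against 10.8 TPM in the controls and 25.7 and 36.8 TPM in the CD95ko libraries, the largest difference of the list at -2.93. Stat2, Irf9 and Irf1 were listed at 33.0 against 8.82, 92.5 against 35.3 and 259 against 84.8 TPM in the controls. Socs1, a feedback inhibitor of JAK kinases, had 18.1 against 3.50 TPM, so an inhibitor was lower beside the activators. By contrast the receptor chains Ifnar1 and Ifnar2 had 18.2 against 15.4 and 77.4 against 68.1 TPM in the controls, and their CD95ko values were 18.2 and 17.9 TPM for Ifnar1 and 54.8 and 89.5 TPM for Ifnar2. Ifngr1 and Ifngr2, which bind interferon gamma, had 40.8 against 34.6 and 49.2 against 53.9 TPM in the controls. The kinases Jak1 and Tyk2 had 31.6 against 28.1 and 10.3 against 6.70 TPM. Irf3, the factor that first turns on Ifnb1, was 1.4-fold higher in control 2, at 34.6 TPM in control 1 against 48.5 in control 2, with 47.2 and 48.5 TPM in the CD95ko libraries.

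Sensors of nucleic acid and their adaptors were lower in part. Of 21 described members, 10 were over 2-fold lower and 0 higher, with a median of -0.88. 8 were past 2-fold relative to all genes. Most of the 10 are counted above already. Dhx58, Trim25, Eif2ak2, Ddx58, Zbp1 and Ifih1 also stand in the list of interferon effectors, and Irf7 in that of receptors and factors. Only Ifnb1, Tlr3 and Trex1 were new here. Ddx58 (RIG-I) and Ifih1 (MDA5), which detect viral RNA, were listed at 64.1 against 20.3 and 25.9 against 12.1 TPM in the controls, and Dhx58, their regulator LGP2, at 25.1 against 3.31. Tlr3, the endosomal receptor for double-stranded RNA, had 18.5 against 5.67 TPM. All of them were higher in control 1. Mavs, the adaptor of RIG-I and MDA5, had 29.9 against 18.6 TPM and the kinase Tbk1 34.0 against 22.5. For the DNA-sensing arm, Mb21d1 (cGAS) had 15.9 against 11.7 TPM and Tmem173 (STING) 14.8 against 10.4. These 4 genes were within 2-fold. Ifnb1, the gene of interferon beta, was listed at 3.67 TPM in control 1, 0 in control 2, 0 in CD95ko 1 and 0 in CD95ko 2, so control 1 was the only library with a value above 0.

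MHC class I, which presents peptides to cytotoxic T cells, was also lower in control 2. 13 of 26 described members were over 2-fold lower and 1 higher, with a median of -1.004, and relative to all genes 7 were lower and 1 higher. Tap1, a subunit of the peptide transporter, was listed at 59.3 TPM in control 1, 10.7 in control 2, 19.4 in CD95ko 1 and 48.3 in CD95ko 2, and Psmb8, a catalytic subunit of the immunoproteasome, at 227 TPM in control 1, 52.3 in control 2, 23.8 in CD95ko 1 and 481 in CD95ko 2. For Psmb8 the CD95ko values lay on either side of both controls. The endoplasmic reticulum chaperones Canx and Calr were closer together, with 218 against 146 and 337 against 286 TPM. Tapbp (tapasin) had 204 against 84.5 TPM in the controls and Psmb9 15.6 against 3.80. The heavy chain H2-D1 and the light chain B2m were abundant and closer together, at 801 against 486 and 787 against 507 TPM. The classical H2-K1, H2-D1 and H2-L together were 1.70-fold lower, from 1026 to 604 TPM.

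Among non-classical class I genes, single copies differed by all or nothing. H2-Q8 was listed at 113 TPM in control 1, 0 in control 2, 0 in CD95ko 1 and 0 in CD95ko 2. H2-Q7 had 26.1 against 0 TPM in the controls and 6.94 and 7.46 TPM in the CD95ko libraries. H2-T22, with 19.1 against 0 TPM in the controls and 0 and 26.4 TPM in the CD95ko libraries, was also at 0 in control 2. H2-Q6 went the other way, at 0.98 against 13.7 TPM in the controls and 12.9 and 54.2 TPM in the CD95ko libraries. These genes are near copies: 46.4% of the 25-base stretches of H2-Q7, 57.4% of H2-T22 and 58.6% of H2-Q6 also occur in other genes, so reads could be divided between them differently in each library. Summed over H2-Q4, H2-Q6, H2-Q7, H2-Q8 and H2-Q10, the values were 302 TPM in control 1, 95.7 in control 2, 81.1 in CD95ko 1 and 201 in CD95ko 2. The sum was 3.15-fold lower in control 2, and the all-or-nothing values of single copies are uncertain. H2-Q8 made up 113 of the 302 TPM in control 1. Its share of stretches in other genes is not known, since it had no match by symbol in GENCODE M21. H2-T23, the mouse Qa-1 molecule seen by NKG2A on natural killer cells, was listed at 278 against 126 TPM in the controls and 243 and 603 TPM in the CD95ko libraries.

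Secreted immune signals differed in both directions. Of 34 described chemokines and cytokines, 13 were over 2-fold lower and 4 higher, with a median of -0.55. Relative to all genes these counts were 10 and 6. Of the lower genes, Cxcl10 also stands in the list of interferon effectors, and Tgfb2 and Tgfb3 in that of TGF-beta signalling. Some were weak in both controls, such as Il6 (1.21 against 0 TPM) and Il11 (2.68 against 0 TPM). Cxcl10 and Cxcl11, which draw T cells through CXCR3, were both lower: Cxcl10 was listed at 193 against 49.9 TPM in the controls and 23.8 and 0 TPM in the CD95ko libraries, and Cxcl11 at 32.5 against 2.61 TPM in the controls and 0 and 0 TPM in the CD95ko libraries. Cxcl11 is annotated in GENCODE M21 as a polymorphic pseudogene, so its transcript need not encode a working protein. Ccl5 had 158 against 52.4 TPM in the controls and 19.8 and 41.3 TPM in the CD95ko libraries. Ccl2, which recruits monocytes, had 123 against 45.6 TPM in the controls and 2.29 and 0 TPM in the CD95ko libraries. Control 1 was the highest library for all 4 of these chemokines. Il15, a growth factor for natural killer cells, was listed at 8.09 TPM in control 1 against 0 in control 2. Vegfc, a lymphatic growth factor, had 61.1 against 5.76 TPM in the controls and 9.56 and 20.0 TPM in the CD95ko libraries. The neutrophil chemokines differed among themselves: Cxcl3 was listed at 51.1 against 1.44 TPM in the controls and 10.4 and 0 TPM in the CD95ko libraries. Cxcl1 was higher in control 2, with 730.1 against 1767 TPM in the controls and 420.0 and 244 TPM in the CD95ko libraries. Cxcl5 had 581 against 894 TPM in the controls. Csf2 (GM-CSF), which supports granulocytes and macrophages, was 8.11-fold higher in control 2, at 6.44 TPM in control 1, 52.3 in control 2, 3.41 in CD95ko 1 and 10.7 in CD95ko 2. Il1a had 30.5 against 129 TPM in the controls and 75.1 and 165 TPM in the CD95ko libraries. Csf3 (G-CSF), known in 4T1 for expanding neutrophils, had 254 against 441 TPM in the controls and 218 and 112 TPM in the CD95ko libraries. Control 2 was the highest of the 4 libraries for Cxcl1, Csf2 and Csf3 and not for Il1a.

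The NF-kB pathway, which also controls these cytokines, was close to even between the controls. Of 25 described subunits, inhibitors and feedback genes, 3 were over 2-fold lower and 1 higher, with a median of -0.10. Vcam1, an adhesion molecule, was listed at 76.3 against 21.9 TPM in the controls and 2.32 and 70.7 TPM in the CD95ko libraries, and Nfkbia, the feedback inhibitor, had 435 against 535 TPM in the controls. Ptgs2 (COX-2), which makes prostaglandins, had 103 against 199 TPM in the controls and 30.5 and 52.0 TPM in the CD95ko libraries. Of 13 ligands for natural killer cells and checkpoints, 5 were over 2-fold lower, among them Lgals9 (galectin-9) at 108 TPM in control 1 against 23.2 in control 2 and Cd274 (PD-L1) at 6.52 TPM in control 1 against 2.15 in control 2. Relative to the median of all genes, Lgals9 (-1.80) and Clec2d (-1.46) stayed over 2-fold lower. Tnfrsf14 (-0.97), Cd274 (-0.89) and Raet1c (-0.67) were within 2-fold on that scale. Lgals9 also stands in the list of interferon effectors.

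A list median between -0.37 and 0, such as that of the NF-kB list, is below 0 on the deposited scale and above 0 relative to the median of all genes, so its direction depends on the scaling. Counts of list members past 2-fold are to be read against the 14.1% of all genes that were lower and the 2.72% that were higher. The plot of gene lists sets these groups beside the others. Its low end is formed by the interferon effectors, and its high end by histones and ribosomal proteins.

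**Figure D3:**
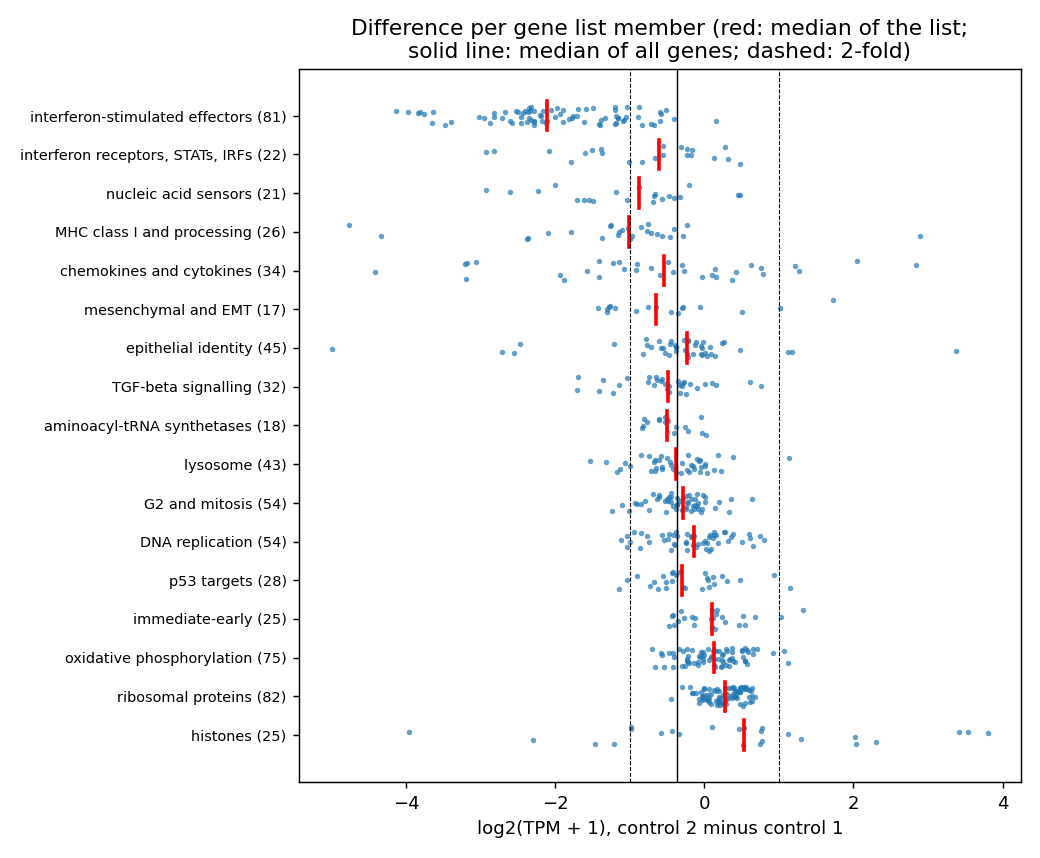
Difference of each member of 17 of the gene lists, as log2(TPM + 1) in control 2 minus control 1 on the x axis, with 1 point per gene, a red bar at the median of each list, the number of described genes in brackets, a solid line at the all-gene median of -0.37 and dashed lines at 2-fold. The medians run from -2.10 for the interferon-stimulated effectors to 0.54 for the histones.

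The 5 most abundant of the genes over 2-fold higher in control 2 were S100a6, Tmsb10, Cxcl1, Mt1 and Mt2. Mt1 and Mt2 bind zinc and copper and are turned on by metals and stress. Mt2 was listed at 148 TPM in control 1, 1121 in control 2, 115 in CD95ko 1 and 38.8 in CD95ko 2, and Mt1 at 255 TPM in control 1, 1107 in control 2, 288 in CD95ko 1 and 120.4 in CD95ko 2. Control 2 was far above the other 3 libraries, which lay between 38.8 and 288 TPM, and the pair together was 5.52-fold higher than in control 1 (404 against 2228 TPM). S100a6 had 2306 against 4783 TPM in the controls and 4676 and 2195 TPM in the CD95ko libraries, so CD95ko 1 was close to control 2 and CD95ko 2 close to control 1. S100a4, a calcium-binding protein linked to motility and metastasis, had 293 against 976 TPM in the controls and 211 and 667 TPM in the CD95ko libraries, with 49.7% of its 25-base stretches also in another gene model. Tmsb10, a small actin-binding protein, was 2.15-fold higher, at 1128 TPM in control 1, 2424 in control 2, 1331 in CD95ko 1 and 1668 in CD95ko 2. S100a8, a subunit of the neutrophil protein calprotectin, was listed at 0 TPM in control 1, 10.3 in control 2, 0 in CD95ko 1 and 0 in CD95ko 2, and Saa3, an acute-phase protein, had 2.98 against 19.6 TPM in the controls and 0 and 0 TPM in the CD95ko libraries. Krt17, a keratin of basal and wounded epithelium, was listed at 1.67 TPM in control 1, 26.6 in control 2, 1.11 in CD95ko 1 and 0 in CD95ko 2. Both Krt17 and Csf2 were weak in control 1 and also in the CD95ko libraries.

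A pair of genes outside the rule for naming, chosen after their values were seen, also had their highest value in control 2. Btg3, an anti-proliferative gene, was listed at 15.8 against 104 TPM in the controls and 26.5 and 10.1 TPM in the CD95ko libraries, and Batf3, a transcription factor known from dendritic cells, at 2.02 against 20.0 TPM in the controls and 2.68 and 5.60 TPM in the CD95ko libraries. The plot of genes higher in control 2 shows each in the 4 libraries.

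**Figure D4:**
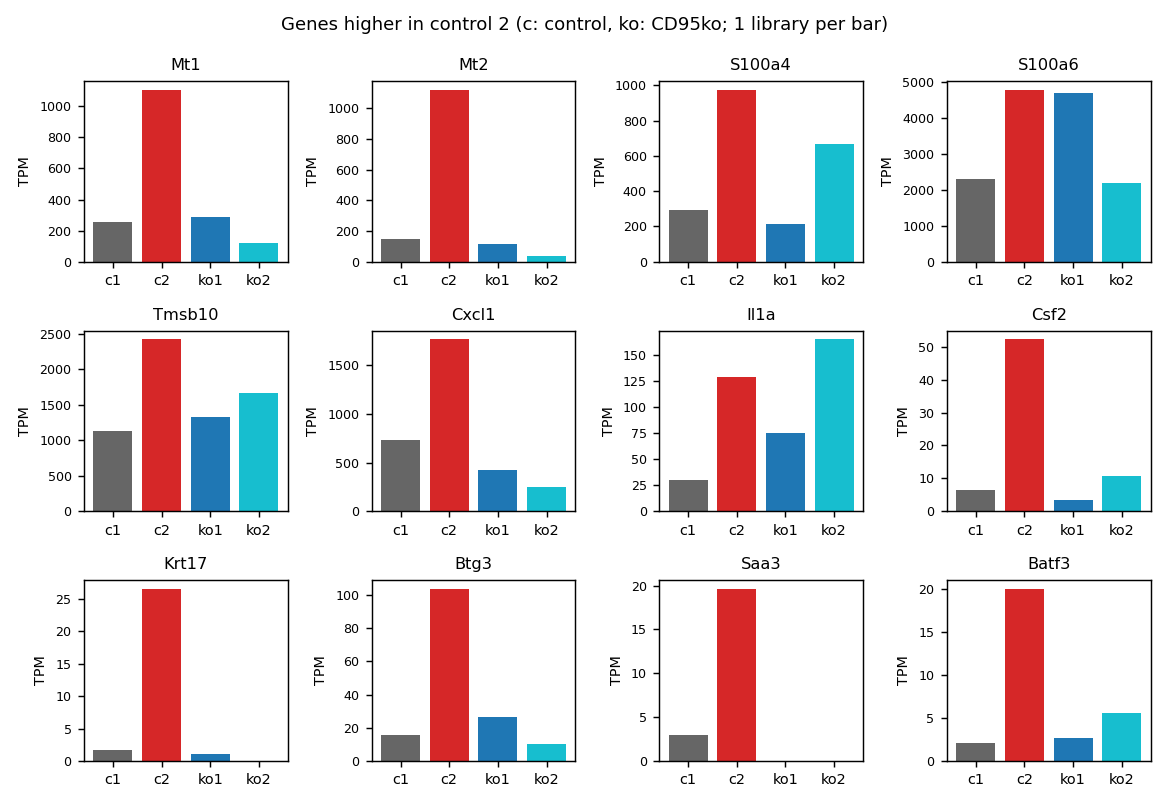
TPM of 12 genes with higher values in control 2, with 1 panel per gene on a linear axis from 0 and 1 bar per library (c1 and c2 for the controls, ko1 and ko2 for the CD95ko libraries). Mt2 is at 1121 TPM in control 2 and at 148, 115 and 38.8 TPM in control 1, CD95ko 1 and CD95ko 2.

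Iron and redox genes beside the metallothioneins were near even on the deposited scale. Of 29 described members of that list, which includes Mt1 and Mt2, 2 were over 2-fold higher and 2 lower, with a median of 0.09. The pair higher were Mt1 and Mt2 themselves. Ftl1 and Fth1, the ferritin chains that store iron, had 5917 against 9845 and 2933 against 4379 TPM in the controls, and Txn1, thioredoxin, 303 against 594. Hmox1, the heme oxygenase that NRF2 turns on, had 51.0 against 53.4 TPM. Relative to the median of all genes (-0.37), Txn1 (1.34), Nqo1, Prdx1 and Ftl1 were over 2-fold higher too. The 2 lower genes, Gstm1 and Gsta4, were within 2-fold on that scale, at -0.96 and -0.76.

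Translation and respiration genes were shifted by small amounts on the deposited scale. Of 82 described cytosolic ribosomal protein genes, 0 were past 2-fold, and 67 were above 0 with a median of 0.28 against -0.37 for all genes. Control 2 had the highest value of the 4 libraries for 52 of them, against 11.9% of all genes. Relative to the median of all genes, Rps21, Rpl39, Fau and Rpl41 were just over 2-fold higher, at 1.0001 to 1.045. Rps21 had 2005 against 3209 TPM in the controls and Rplp2 4504 against 6943. Of 75 nuclear-encoded genes of oxidative phosphorylation, 2 were over 2-fold higher and 0 lower, with a median of 0.13. Ndufb6, a subunit of complex I, had 145 against 318 TPM in the controls and 223 and 197 TPM in the CD95ko libraries. Aminoacyl-tRNA synthetases, which charge tRNAs for translation, had a median of -0.50 with 0 of 18 past 2-fold.

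Most epithelial genes had similar levels in the 2 controls. Of 45 described epithelial genes, 5 were over 2-fold lower and 3 higher, with a median of -0.23. Cdh1 (E-cadherin) had 159 TPM in control 1 against 154 in control 2, Epcam 179 against 166 and Krt8 537 against 570.5 TPM. Among the exceptions, Mal2, a transcytosis protein, was listed at 30.8 TPM in control 1, 0 in control 2, 37.8 in CD95ko 1 and 8.39 in CD95ko 2. Rab25, a recycling GTPase, was listed at 86.2 against 12.3 TPM in the controls and 321 and 290.4 TPM in the CD95ko libraries. Also lower were Ap1m2 (18.7 against 2.37 TPM), Dsc2 (4.53 against 0) and Prss8 (23.3 against 9.48). The 3 higher were Krt17, Ovol1 and Pkp1. Of 17 mesenchymal genes, 6 were over 2-fold lower and 2 higher, with a median of -0.65, but relative to all genes 1 was lower and 2 were higher. Vim (vimentin) had 652 against 629 TPM in the controls and 92.9 and 211 TPM in the CD95ko libraries, so the controls lay together and apart from the clones. Fn1 (fibronectin) had 347 against 151 TPM in the controls and 329 and 921 TPM in the CD95ko libraries. Sparc, a matrix glycoprotein, had 128 against 47.1 TPM in the controls and 4.83 and 74.5 TPM in the CD95ko libraries. Mmp14, a membrane-bound collagenase, had 130.1 against 53.01 TPM in the controls and Mmp9, a gelatinase, 66.6 against 16.1 TPM in the controls and 39.8 and 802 TPM in the CD95ko libraries. Among 28 matrix genes 5 were over 2-fold lower and 0 higher, and among 22 proteases and their inhibitors 5 were lower and 0 higher, with medians of -0.37 and -0.31. These shares, 17.9% and 22.7% lower, were not far from the 14.1% of all genes.

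The markers of other cell types were low in both controls. Of 22 markers of macrophages and other blood cells, 17 were listed at 0 in all 4 libraries, and their sum was 58.4 TPM in control 1 and 48.9 in control 2, with 54.6 and 257 in the CD95ko libraries. It came mostly from Cd68 (44.6 against 42.0 TPM in the controls), a lysosomal protein that is not limited to macrophages. Of 12 fibroblast markers, 8 were listed at 0 in all 4, with sums of 9.33 and 1.39 TPM in the controls. For 13 markers of endothelium and adipocytes these figures were 11, 43.7 and 21.2. Nearly all of that sum was the single gene Egfl7, at 43.7 TPM in control 1 against 20.9 in control 2. The 15 described markers of mammary epithelium summed to 7082 and 6541 TPM, with 0 past 2-fold. Ptprc, Cd3e and Pecam1, defining genes of leukocytes, T cells and endothelium, were listed at 0 in all 4 libraries, and Col1a1, a fibroblast collagen, at 0.25 TPM in control 1 and at 0 in control 2. The part of other cells in the differences was not tested.

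The targeted gene did not set the controls apart. Fas was listed at 49.4 TPM in control 1, 39.2 in control 2, 15.8 in CD95ko 1 and 49.5 in CD95ko 2, a difference of -0.33 between the controls, near the median of all genes. Of 31 described genes of the death receptor pathway, 4 (12.9%, against 14.1% of all genes) were over 2-fold lower and 0 higher, with a median of -0.32, and 1 was lower relative to all genes. Apaf1, the scaffold of the apoptosome, had 6.47 against 1.77 TPM and Casp9, its caspase, 5.62 against 2.06. Genes that p53 activates after DNA damage were also near even: of 28, 1 was over 2-fold higher and 2 lower, with a median of -0.30. Cdkn1a (p21) was the higher one, at 10.3 TPM in control 1, 24.1 in control 2, 14.5 in CD95ko 1 and 23.2 in CD95ko 2, and Mdm2 had 32.5 against 33.8 TPM. Among 25 immediate-early genes 2 were over 2-fold higher and 0 lower, with a median of 0.10. Among 23 feedback genes of ERK signalling 0 were higher and 1 lower, with a median of 0.18. Relative to the median of all genes, Atf3 (1.05) of the immediate-early list was over 2-fold higher too. On that scale Areg (1.28) and Phlda1 (1.05) of the ERK list were over 2-fold higher, and Spred2 (-0.86) was within 2-fold. Egr1 had 9.34 against 24.8 TPM and Ier3 408 against 831. DNA replication genes (54, median -0.14) and genes of G2 and mitosis (54, median -0.29) each had 3 members over 2-fold lower and 0 higher. These shares were below the 14.1% of all genes. Relative to the median of all genes, the lower members were all within 2-fold, at -0.87 (Ncapd2) to -0.64 (Hmmr). On that scale Dut, Rpa3, Pcna and Hmgb2 were over 2-fold higher.

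Histone and small nucleolar RNA genes gave several of the largest differences. The 12 genes with the largest positive difference were Snora81, Akr1b3, Snora23, Snora74a, Hist1h2an, Hist1h4j, Pet117, Hist1h2ak, Hist1h3d, AA465934, S100a8 and Hist1h3e. All except Pet117 were listed at 0 in control 1, so no fold is given. Snora81, a small nucleolar RNA inside an intron of Eif4a2, was listed at 0 TPM in control 1, 178 in control 2, 0 in CD95ko 1 and 0 in CD95ko 2, while Eif4a2 itself had 203 against 196 TPM in the controls. Every 25-base stretch of Snora81 also occurs in a transcript of Eif4a2, so its value is uncertain. Snora23, which lies in Ipo7, was listed at 0 TPM in control 1, 36.7 in control 2, 0 in CD95ko 1 and 0 in CD95ko 2, with Ipo7 at 76.3 against 72.7 TPM in the controls. These host genes were level while the small RNAs were listed at 0 in 3 of the libraries. Pet117, an assembly factor of cytochrome oxidase, was listed at 1.27 TPM in control 1, 37.8 in control 2, 46.7 in CD95ko 1 and 62.7 in CD95ko 2, so control 1 was the odd library, and all of its 25-base stretches also occur in Kat14. Akr1b3, an aldose reductase, was listed at 0 TPM in control 1, 49.9 in control 2, 90.3 in CD95ko 1 and 0 in CD95ko 2.

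Replication-dependent histone genes, whose messages mostly lack a poly(A) tail, were mixed. Of 25 described members, 8 were over 2-fold higher and 4 lower, with a median of 0.54, and relative to all genes 12 were higher and 3 lower. Over all 68 symbols beginning with Hist1 to Hist4, the summed TPM was 3022 in control 1, 5083 in control 2, 1166 in CD95ko 1 and 898 in CD95ko 2, so both controls lay above both clones. Single copies are uncertain, since 90.8% of the 25-base stretches of Hist1h2an and 87.7% of Hist1h2af occur in other genes. Hist1h2an was listed at 0 against 19.9 TPM in the controls and Hist1h2af at 18.2 against 0.

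The 12 genes with the largest negative difference were H2-Q8, Rab26os, Mal2, H2-Q7, Bspry, Cxcl3, H2-T22, Hist1h2af, Ifit3b, BC039966, Gbp9 and Hist2h4. All except Cxcl3, Ifit3b and Gbp9 were listed at 0 in control 2. Bspry, an epithelial calcium channel regulator, was listed at 24.3 TPM in control 1, 0 in control 2, 0 in CD95ko 1 and 0 in CD95ko 2, and Rab26os, a noncoding transcript, at 31.4 TPM in control 1, 0 in control 2, 10.4 in CD95ko 1 and 0 in CD95ko 2. In all, 378 genes with at least 1 TPM in control 1 were listed at 0 in control 2, and 174 the other way. Most of these were weak: the median in the other control was 1.91 and 1.79 TPM, and 52 and 24 of them reached 5 TPM.

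Chromosomes differed in how far control 2 lay below control 1. On chromosome 11 the median difference of 967 genes was -0.61, with 23.8% over 2-fold lower, and on chromosome 15 it was -0.58 over 471 genes, with 22.7%. The medians of chromosomes 18 and 5 were -0.53 and -0.51. At the other end, chromosome 4 had a median of -0.11 over 731 genes, with 10.8% lower, and chromosome 19 -0.17 over 418. Position along the chromosome was examined in windows of at least 25 neighbouring described genes. On chromosome 11, 37 of 38 windows lay below the median of all genes, on chromosome 15 18 of 18 and on chromosome 18 11 of 11, against 2 of 29 on chromosome 4 and 2 of 16 on chromosome 19. Other chromosomes held both low and high stretches. Window medians ran from -0.81 to 0.19 on chromosome 13, from -0.58 to 0.11 on chromosome 7 and from -0.66 to 0.13 on chromosome 8. The window at 0.19 on chromosome 13 spans histone genes such as Hist1h2an and Hist1h2af, whose single-copy values are uncertain. Chromosome 11 also holds 14 of the interferon effectors, among them Irgm1, Igtp, Ifi47 and Slfn9, and without the 4 interferon-related lists 22.7% of its genes were still over 2-fold lower. Between the CD95ko clones the medians were -0.03 on chromosome 11, 0.06 on chromosome 15, -0.39 on chromosome 18, -0.38 on chromosome 5 and -0.19 on chromosome 4, against -0.08 for all genes. Chromosomes 18 and 5 were thus low in CD95ko 2 as well, relative to CD95ko 1. So were X (-0.41), 13 (-0.38), 12 (-0.34) and 16 (-0.31). Between the controls, X, 12 and 16 lay near the median of all genes, at -0.34, -0.35 and -0.35. On chromosome 15 the windows of the clone pair ran from -0.79 to 0.82. The number of gene copies per chromosome was not measured, and its part in the result was not tested.

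**Figure D5:**
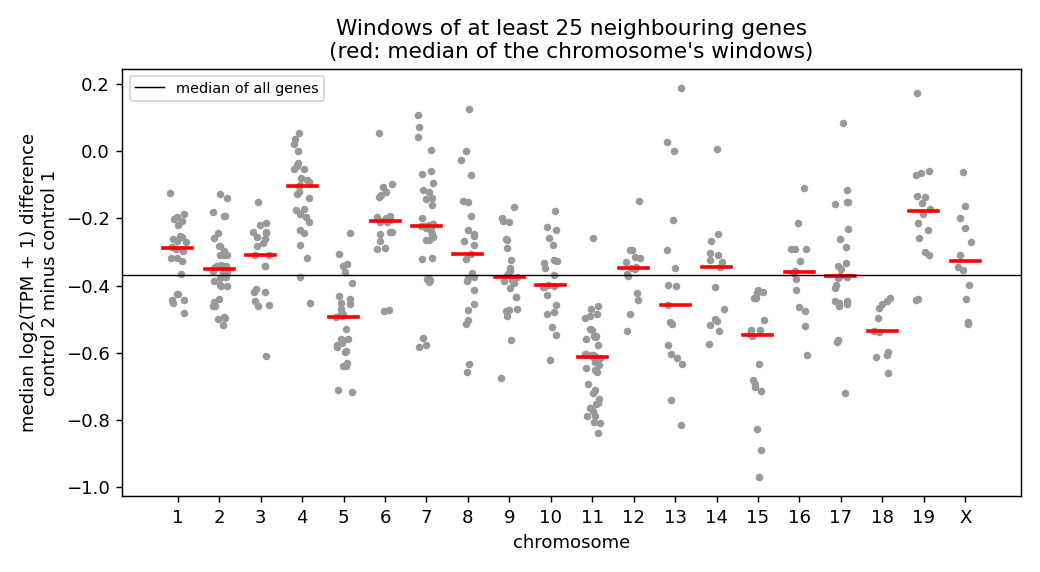
Median difference between the controls, as log2(TPM + 1) in control 2 minus control 1, for windows of at least 25 neighbouring described genes on each chromosome, with 1 point per window and a red bar at the median of the windows. All 18 windows of chromosome 15 and 37 of 38 of chromosome 11 lie below the all-gene median of -0.37, against 2 of 29 of chromosome 4.

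Transcript properties moved with the difference to a small degree. From the shortest to the longest of 4 equal groups of transcripts the median was -0.25, -0.33, -0.39 and -0.46, and Spearman's rho across 11325 genes was -0.14 with length, -0.04 with GC content and 0.24 with mean level. These genes share the same pair of libraries, so the values are descriptions. The part of fragment selection by size in the difference was not tested.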

How the data were processed

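RNA-seq libraries of 4 4T1 cultures were analysed, with 1 library per control and per CD95ko clone. Per the labels' protocols, poly(A) RNA was enriched, broken into fragments, given new poly(A) tails and copied by a method derived from SMART-seq2. After PCR, a size range was taken from a gel, which can favour some fragments. The authors deposited TPM per gene symbol, per the file headers. STAR 2.6.0, RSEM 1.3.0 and mm10 are named in the submitters' processing notes. The deposited tables give no counts, so depth and counting error are unknown.

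Differences are log2(TPM + 1), control 2 minus control 1, for genes with at least 1 TPM in either control, without tests. The genes named were the 12 largest differences in each direction (predicted genes and pseudogenes left out), up to 5 members per gene list with the largest difference, Fas, and the 5 most abundant genes over 2-fold apart in each direction. Other list members are named for their role in a pathway or after their values were seen, and some genes are not reported here. The comparison and the 39 lists were chosen with earlier results of these data known. Positions, transcript length, GC content and shared 25-base stretches came from GENCODE M21, and promoters from RefSeq GRCm38.p6, the same build as mm10. Alternatives changed the pseudocount, filter, centring, normalization and yardstick library. Scripts ran in Python 3.11.15 with pandas 2.3.3 and numpy 2.4.6 and were tested on simulated data.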

Additional observations from a re-analysis of the deposited data

How the results depend on the processing

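The interferon-stimulated effectors kept their direction under every alternative run, with medians from -2.24 to -1.68 and 56 to 70 members over 2-fold lower in control 2. Counts over all genes depended on scaling and on the filter. The 310 genes over 2-fold higher became 569 relative to the median of all genes, 623 after quantile normalization, and 525 relative to genes of similar transcript length, an alternative chosen after seeing the data. The 1605 lower genes became 724, 707 and 740 under these settings. Higher genes numbered 136 with at least 5 TPM in either control and 116 with at least 1 TPM in both controls, where 1039 were lower. These filters leave fewer genes. The SD between the controls was 1.23 with a pseudocount of 0.1. Control 2 was the lowest library for 2794 of all genes after quantile normalization of the 4 libraries (41 effectors), and for 5623 to 6481 genes and 61 to 63 effectors without 1 CD95ko library, where fewer libraries are compared. List medians between -0.37 and 0 turned positive under median centring, by its construction. Of 196 genes chosen by the naming rule, none past 2-fold changed its sign, but 39 were no longer past 2-fold under median centring, 41 under quantile normalization and 37 relative to genes of similar transcript length, among them Fn1 at -0.83 and H2-T23 at -0.77 under median centring. No mitochondrially encoded gene entered the rescaling, which left out only the ribosomal protein genes. No paired analysis was possible because each control is a single library and the result comes from no test. TPM hides the depth of both controls, so a gene listed at 0 may have been missed.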

Other observations

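Metabolic and stress groups that the comparison above did not cover are given beside all genes, of which 14.1% were over 2-fold lower and 2.72% higher, with a median of -0.37. Of 36 described genes of glycolysis and the hypoxia response, 2 were over 2-fold higher in control 2 and 3 lower, with a median of -0.10. Slc2a1, the glucose transporter GLUT1, was listed at 42.7 TPM in control 1, 87.0 in control 2, 92.6 in CD95ko 1 and 80.5 in CD95ko 2, and Car9, a carbonic anhydrase turned on in hypoxia, at 6.29 TPM in control 1, 15.2 in control 2, 145 in CD95ko 1 and 55.6 in CD95ko 2, whereas Bnip3, a mitophagy receptor turned on in hypoxia too, was lower, at 21.9 TPM in control 1 against 10.1 in control 2. Cholesterol and fatty acid synthesis had 0 of 34 genes past 2-fold, with a median of -0.19. In the unfolded protein and integrated stress response 1 of 45 was higher and 6 were lower, with a median of -0.21. Stc2, a secreted glycoprotein of that response, had 31.1 against 4.55 TPM in the controls and 11.9 and 0 TPM in the CD95ko libraries. Lysosomal genes had 1 of 43 higher and 6 lower, with a median of -0.38, close to the values of all genes. Of 32 genes of TGF-beta signalling, 7 were lower and 0 higher, with a median of -0.49, and relative to all genes 3 were lower and 1 higher.

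The surface antigens Ly6a (Sca-1) and Ly6e, which lie on chromosome 15, were low in control 2. Ly6a was listed at 23.3 against 1.52 TPM in the controls and 3.73 and 139 TPM in the CD95ko libraries, and Ly6e at 69.9 against 12.4 TPM in the controls and 0.88 and 362 TPM in the CD95ko libraries. CD95ko 2 was the highest library for both, and CD95ko 1 was the lowest for Ly6e. Of the 25-base stretches of Ly6a, 37.4% also occur in other genes.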
